A study of Mus musculus with 18 samples.

Results

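The 8 genes described here encode regulators of the cell cycle gene program. They are Foxm1, Mybl2 (which encodes B-Myb), its paralog Mybl1 (A-Myb), and the MuvB core genes Lin9, Lin37, Lin52, Lin54 and Rbbp4. They were chosen by symbol for their role, with earlier results of these data known, and are 8 of the 55450 genes in the table. Libraries came from ED1SQ4 cells, a murine lung cancer line derived from transgenic mice that overexpress cyclin E, so that all groups share this origin. CYC065, which inhibits CDK2 and CDK9, was given at 0.5 μM over 72 hours, and control cells received vehicle. For each treatment, RNA came from unsorted cells, from cells with diploid DNA content (2N) and from cells with 4N content, labelled polyploid, the sorted populations being gated after staining with a DNA dye. Sorted and unsorted cells therefore also differed in staining and sorting, and these cannot be told apart. The comparisons address which transcripts differ after CYC065 treatment, and which distinguish 4N from 2N cells. Effects of inhibiting CDK2 and CDK9 cannot be told apart in these libraries.

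The MuvB core is a protein complex that binds promoters of cell cycle genes and takes different partners through the cycle. With the pocket proteins and E2F4 it forms the DREAM complex, which represses these genes in quiescent cells, and with B-Myb and then FoxM1 it activates genes of the G2 and M phases. CDK2 and CDK1 complexes phosphorylate FoxM1 and B-Myb, and cycling cells that have replicated their DNA also have a 4N content, so that a 4N gate can hold G2 and M cells beside polyploid cells. The gate does not separate them, and in either treatment they cannot be told apart here.

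The sample titles number the 3 columns of each condition as replicates, whereas the descriptions name them as parts of 1 library. Over genes with whole counts they differed by no more than sampling noise, with a chi-square per degree of freedom of 0.991 to 1.02 (for the 8 regulators, 0.762 to 1.38), against 36.6 or more between libraries. Over genes with fractional counts, which RSEM gives where reads are divided among genes, it was 4.35 to 7.60, and over all genes 1.62 to 2.24. They were summed and counted as 1 library, so that n = 1 for each condition, no difference here has a replicate check, and no P value is given. Summed libraries held 54750203 to 62795507 expected counts. The 95% intervals below cover counting error only. They narrow as counts rise, and the shares of all genes with intervals beyond 0 are not matched to the members for depth. A gene is called higher or lower where its log2 ratio lies beyond 1. Lung epithelial identity was not evident in these cultures: summed epithelial markers (Epcam, Cdh1, Krt8, Krt18, Krt19) were at 0.436 to 1.28 CPM (counts scaled to a common library size), Nkx2-1 and Scgb1a1 had 0 counts in every library, and the mesenchymal markers Vim, Cdh2, Fn1, Zeb1 and Col1a1 summed to 12798 to 19020 CPM. In bulk samples, fewer cells expressing a gene and less RNA per cell cannot be told apart.

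Foxm1 encodes a forkhead transcription factor that drives G2/M genes. The gene (ENSMUSG00000001517.14) lies on the plus strand of chr6:128362967-128376146 (mm10). It had 10483 counts (183 CPM) in unsorted vehicle cells, 10647 (190 CPM) in vehicle 2N cells and 14619 (249 CPM) in vehicle 4N cells. After CYC065 treatment it had 2652 counts (48.2 CPM) in unsorted cells, 2793 (47.8 CPM) in 2N cells and 5915 (87.3 CPM) in 4N cells. All 3 vehicle libraries were above all 3 CYC065 libraries, and the highest level was 5.22-fold the lowest. Intervals of neighboring levels overlapped for vehicle 2N and unsorted cells and for CYC065 2N and unsorted cells. The 4N library was the highest within each treatment.

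Mybl2, encoding B-Myb (ENSMUSG00000017861.11, plus strand, chr2:163054687-163084688), spanned the widest range of the 8 genes, 8.46-fold. In vehicle-treated cells it had 4766 counts (83.2 CPM) unsorted, 8052 (143 CPM) in 2N and 7581 (129 CPM) in 4N cells. In CYC065-treated cells it had 933 counts (16.9 CPM) unsorted, 1637 (28.0 CPM) in 2N and 2493 (36.8 CPM) in 4N cells. No 2 neighboring levels had overlapping intervals. The 2N library was the higher of the sorted libraries in vehicle cells and the lower in CYC065 cells. Of its 50-base exonic stretches, 19.3% also occur in other genes, mainly in Gm3320, so its counts are uncertain to that extent. Gm3320 itself had 16 to 88 counts, and adding them, a choice made after seeing the data, left each Mybl2 ratio within its counting interval.

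Mybl1, which encodes A-Myb and is best known for its role in male meiosis (ENSMUSG00000025912.16, minus strand, chr1:9667415-9700209), was lower and varied less. Its levels were 23.8 CPM in unsorted, 27.3 in 2N and 27.4 in 4N vehicle cells, and 14.9 CPM in unsorted, 16.0 in 2N and 26.8 in 4N CYC065 cells. The CYC065 4N library thus lay with the vehicle sorted libraries, with overlapping intervals, and the other CYC065 libraries lay below. The third paralog, Myb, had 5.34 CPM (306 counts) in unsorted vehicle cells and 34 to 105 counts in the other 5 libraries.

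**Figure D1:**
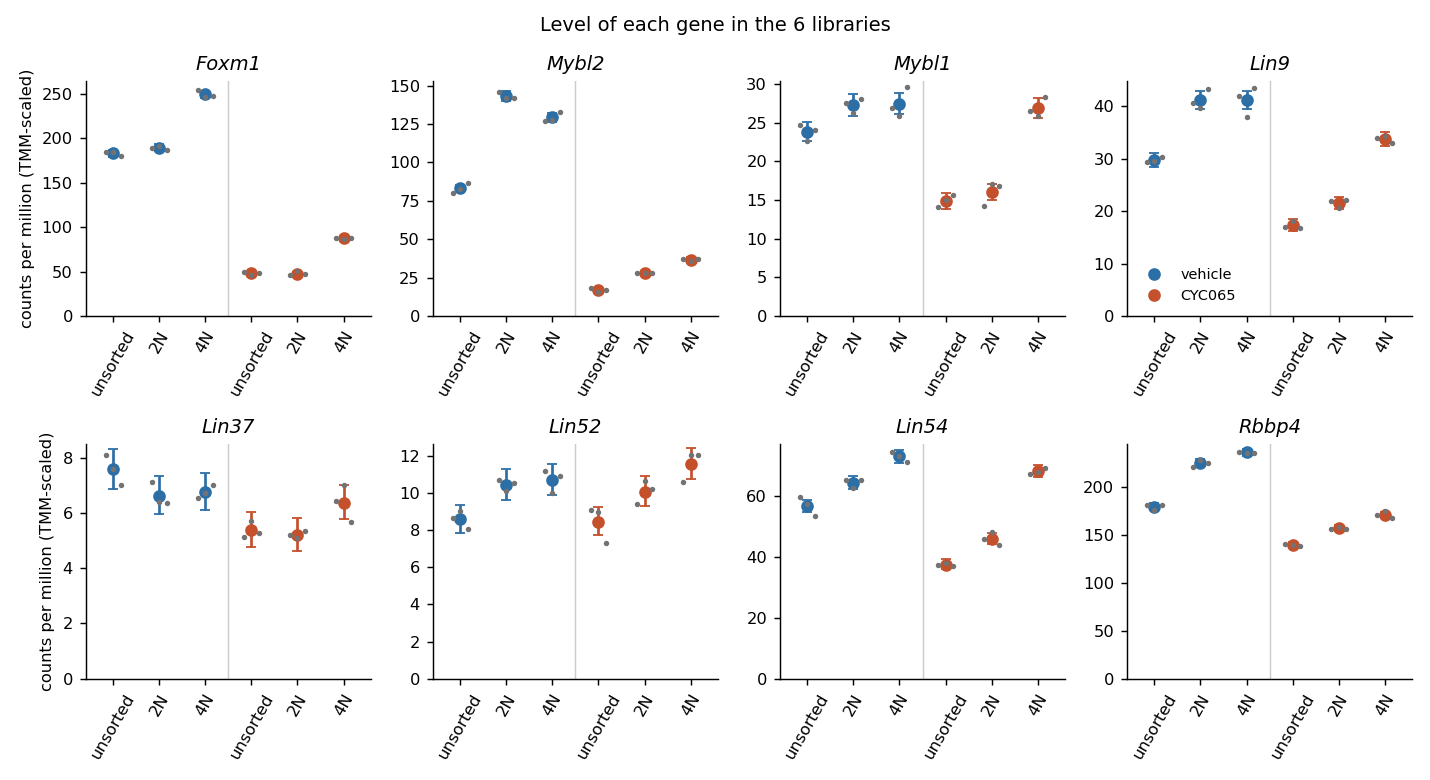
TMM-scaled CPM (linear axes from 0) of each of the 8 genes in the 6 libraries. Large points are summed libraries with 95% counting intervals and small gray points are the 3 columns of each library. Foxm1 and Mybl2 lie higher in all vehicle libraries than in all CYC065 libraries, whereas Lin52 spans 8.47 to 11.6 CPM.

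Among the MuvB core genes, Lin9 encodes a scaffold subunit that bridges the core to B-Myb (ENSMUSG00000058729.13, plus strand, chr1:180641150-180690694). It had 29.8 CPM in unsorted, 41.2 in 2N and 41.2 in 4N vehicle cells, and 17.4 CPM in unsorted, 21.6 in 2N and 33.8 in 4N CYC065 cells. Its 2.37-fold range was the widest of the 5 core genes. Lin54 encodes the DNA-binding subunit (ENSMUSG00000035310.15, minus strand, chr5:100441918-100500639). Its levels were 56.9, 64.4 and 73.1 CPM in unsorted, 2N and 4N vehicle cells and 37.6, 46.0 and 68.2 CPM in the same CYC065 populations. The CYC065 4N level of Lin54 stood above that of vehicle 2N cells, though these intervals overlapped.

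Rbbp4 encodes a histone-binding WD40 protein that also belongs to other chromatin complexes (ENSMUSG00000057236.10, minus strand, chr4:129307100-129335370). It had 180 CPM in unsorted, 225 in 2N and 236 in 4N vehicle cells, and 140 CPM in unsorted, 157 in 2N and 171 in 4N CYC065 cells, again with every vehicle library above every CYC065 library. Its exons overlap those of Sync by 782 and of Gm26722 by 796 bases on the opposite strand. The kit was stranded, but the strand setting of the counting is not given in the sources used here, and Sync held 306 to 721 and Gm26722 35 to 131 counts, beside 7687 to 13843 for Rbbp4.

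Lin37 and Lin52 encode the small subunits of the core. Lin37 is needed for repression by DREAM, and Lin52 is the subunit that DYRK1A phosphorylates. Lin37 (ENSMUSG00000036845.12, minus strand, chr7:30555441-30559838) had 296 to 434 counts and ranged from 5.20 CPM in CYC065 2N cells to 7.57 CPM in unsorted vehicle cells, a 1.46-fold span in which each level overlapped the next. Lin52 (ENSMUSG00000085793.2, plus strand, chr12:84451422-84546145) had 466 to 783 counts and ranged from 8.47 CPM in unsorted CYC065 cells to 11.6 CPM in CYC065 4N cells. Its 1.37-fold span was the narrowest of the 8 genes, and no neighboring levels were separated beyond counting error.

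Levels can be set between genes only per length. Per kilobase (kb) of exon in vehicle 2N cells, Foxm1 (32.9 CPM per kb), Mybl2 (30.9) and Rbbp4 (25.7) were highest, followed by Lin54 (11.1), Lin9 (5.69), Mybl1 (5.05), Lin37 (4.77) and Lin52 (3.35). In CYC065 2N cells Rbbp4 came first, followed by Foxm1 (8.30 CPM per kb), Lin54 (7.90) and Mybl2 (6.05).

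RefSeq promoter sequences (GRCm38.p6, the mm10 build) were matched for Mybl2, Lin37, Lin52, Lin54 (2 starts) and Rbbp4. The cell cycle genes homology region (CHR), the element that LIN54 binds, was searched as TTTGAA and TTCGAA, the E2F element as TTCCCGC and TTGGCGC, the CCAAT box as CCAAT, the Myb element as CAACTG and the forkhead element as GTAAACA, in windows of 300 bases and on both strands. None of these motifs overlap in the matched windows. In each population Mybl2 had the lowest CYC065 over vehicle ratio of the 8 genes, and Lin52 the highest. Printed below, with matches in capitals, are the 250 bases before the starts of Mybl2 and Lin52 and the downstream start of Lin54.
Mybl2, chr2:163054385-163054634, plus strand: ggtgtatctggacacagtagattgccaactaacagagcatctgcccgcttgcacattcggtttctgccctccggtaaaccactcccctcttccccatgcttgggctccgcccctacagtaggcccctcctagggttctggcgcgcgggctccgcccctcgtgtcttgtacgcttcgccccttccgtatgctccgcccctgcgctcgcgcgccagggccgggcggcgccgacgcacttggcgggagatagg
Lin52, chr12:84451258-84451507, plus strand: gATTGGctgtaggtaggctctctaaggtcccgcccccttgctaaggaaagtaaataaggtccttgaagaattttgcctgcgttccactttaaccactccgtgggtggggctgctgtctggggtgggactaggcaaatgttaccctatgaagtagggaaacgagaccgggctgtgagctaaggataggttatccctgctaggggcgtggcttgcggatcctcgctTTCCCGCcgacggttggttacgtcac
Lin54, chr5:100498574-100498823, minus strand: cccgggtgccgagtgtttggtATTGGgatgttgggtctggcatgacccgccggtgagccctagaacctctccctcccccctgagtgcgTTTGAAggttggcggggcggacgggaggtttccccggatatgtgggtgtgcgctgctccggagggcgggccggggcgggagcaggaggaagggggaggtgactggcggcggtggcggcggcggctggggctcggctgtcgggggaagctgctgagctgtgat

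The Mybl2 window held no exact match to the letters searched. Variants of these letters were not searched, such as the ttggcggg near its start, so a lack of E2F elements is not shown. Lin52 held TTCCCGC 26 bases before its start and a CCAAT box at its far end, and Rbbp4 held TTGGCGC 15 bases before its start. Lin54 held 3 CHR matches, TTTGAA at -162 and TTCGAA at 30 for the downstream start and TTTGAA at 41 for the upstream start, counting from 1 at the first transcribed base. Lin37 held TTTGAA at -197, CAACTG at -30 and CCAAT boxes at -97 and -78. CCAAT boxes also lay at -229 for the downstream start of Lin54 and at -26 in Rbbp4. Counted per gene, with either start of Lin54, 4 of the 5 matched members held this motif. Over all 32851 promoters, 17.9% held TTTGAA, 1.56% TTCGAA, 4.6% TTCCCGC, 2.45% TTGGCGC, 37.4% CCAAT, 13.7% CAACTG and 3.65% GTAAACA. These shares count promoters, whereas the members are counted per gene. The matches describe letters only.

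The first comparison asked how CYC065 treatment changed the regulators. Foxm1 and Mybl2 were lower in all 3 populations and were the only members called in any of them. In unsorted cells Foxm1 was 3.80-fold lower (log2 -1.92, 95% interval -1.99 to -1.86) and Mybl2 4.91-fold lower (-2.29, -2.40 to -2.19). In 2N cells the ratios were -1.99 (-2.05 to -1.93) for Foxm1 and -2.36 (-2.43 to -2.28) for Mybl2. In 4N cells they were -1.51 (-1.56 to -1.47) and -1.81 (-1.88 to -1.75). Called lower were thus 2 of 8 members in each population, against 14% of all genes tested in unsorted, 13.3% in 2N and 11.4% in 4N cells. No member was called higher, against 11.7% of all genes in unsorted, 14.9% in 2N and 14.2% in 4N cells. Of all genes tested, 3.09% in unsorted, 1.87% in 2N and 4.20% in 4N cells had a ratio no higher than that of Foxm1, and for Mybl2 these shares were 1.53%, 0.901% and 2.22%.

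The other 6 members did not pass the threshold. In unsorted and 2N cells the MuvB genes and Mybl1 had ratios from -0.93 (Lin9 in 2N cells, -1.03 to -0.83) to -0.02 (Lin52 in unsorted cells, -0.21 to 0.17). In unsorted cells the ratios were -0.68 for Mybl1, -0.78 for Lin9, -0.49 for Lin37, -0.60 for Lin54 and -0.36 for Rbbp4. Counting intervals lay wholly below 0 for 7 of 8 members in unsorted and in 2N cells, against 45.1% and 45.8% of all genes tested, and that of Lin52 held 0 in both. The median over the 8 members was -0.64 in each, beside -0.07 over all genes.

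In 4N cells the same 6 genes lay closer to 0. Ratios were -0.03 (-0.13 to 0.07) for Mybl1, -0.29 (-0.37 to -0.20) for Lin9, -0.09 (-0.29 to 0.11) for Lin37, 0.11 (-0.04 to 0.27) for Lin52 and -0.10 (-0.16 to -0.04) for Lin54. Rbbp4, at -0.46 (-0.50 to -0.43), was the lowest of the core genes in this population. Intervals lay below 0 for 5 of 8 members, against 44.3% of all genes. With scaling by library size alone, ratios in the sorted cells moved up, and those in 4N cells became 0.11 for Mybl1, 0.06 for Lin37 and 0.04 for Lin54, and that of Lin52 in 2N cells moved from -0.05 to 0.09. The directions of these small ratios are therefore not settled, whereas Foxm1 (-1.37) and Mybl2 (-1.67) in 4N cells were still called.

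**Figure D2:**
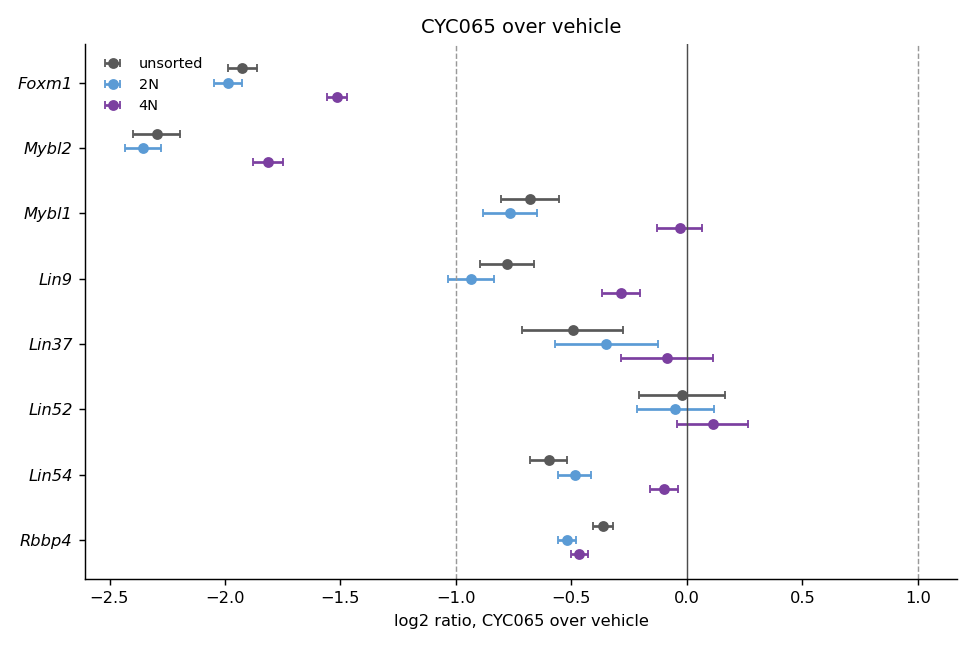
Log2 ratio of CYC065 over vehicle for each gene in unsorted, 2N and 4N cells. Points are ratios of summed libraries, bars are 95% counting intervals, and dashed lines mark the threshold of 1 in either direction. Foxm1 and Mybl2 lie between -2.36 and -1.51, beyond the threshold in all 3 populations, and the other genes lie between -0.93 and 0.11.

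The second comparison asked how cells in the 4N gate differed from those in the 2N gate under each treatment. It uses the same sorted libraries as the comparisons above and is not independent of them. In vehicle-treated cells Foxm1 was 1.32-fold higher in 4N than in 2N cells (log2 0.40, 0.36 to 0.43) and Mybl2 was 1.11-fold lower (-0.15, -0.19 to -0.10). Lin54 was at 0.18 (0.12 to 0.25) and Rbbp4 at 0.07 (0.04 to 0.11), and the intervals of Mybl1 (0.01), Lin9 (0.00), Lin37 (0.03) and Lin52 (0.04) held 0. None of the 8 was called, against 2.73% of all genes tested in either direction. Intervals lay above 0 for 3 of 8 and below 0 for 1 of 8 members, against 28.2% and 25.6% of all genes.

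In CYC065-treated cells every member had a higher level in 4N than in 2N cells, with intervals above 0 for 8 of 8, against 30.5% of all genes tested. None passed the threshold, against 3.64% of all genes in either direction. Foxm1 was 1.83-fold higher (0.87, 0.81 to 0.94), Mybl1 1.67-fold (0.74, 0.63 to 0.86), Lin9 1.57-fold (0.65, 0.55 to 0.75), Lin54 1.48-fold (0.57, 0.50 to 0.64) and Mybl2 1.31-fold (0.39, 0.30 to 0.49). Lin37 (0.29, 0.08 to 0.51), Lin52 (0.20, 0.04 to 0.36) and Rbbp4 (0.12, 0.08 to 0.16) had the smallest ratios. The median over members was 0.48, beside 0.02 over all genes.

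The difference between these ratios, CYC065 minus vehicle, is the same quantity as the CYC065 ratio in 4N cells minus that in 2N cells. It was largest for Mybl1 (0.73, 0.58 to 0.89) and Lin9 (0.65, 0.52 to 0.78), followed by Mybl2 (0.54, 0.44 to 0.64), Foxm1 (0.47, 0.40 to 0.55) and Lin54 (0.39, 0.29 to 0.48). It was small for Rbbp4 (0.05, 0.00 to 0.11), and not separable from 0 at this depth for Lin37 (0.26, -0.03 to 0.56) and Lin52 (0.16, -0.06 to 0.39). Intervals lay above 0 for 6 of 8 members, against 27.3% of all genes, and below 0 for 0 of 8, against 22.6%. None was called, against 7.3%.

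**Figure D3:**
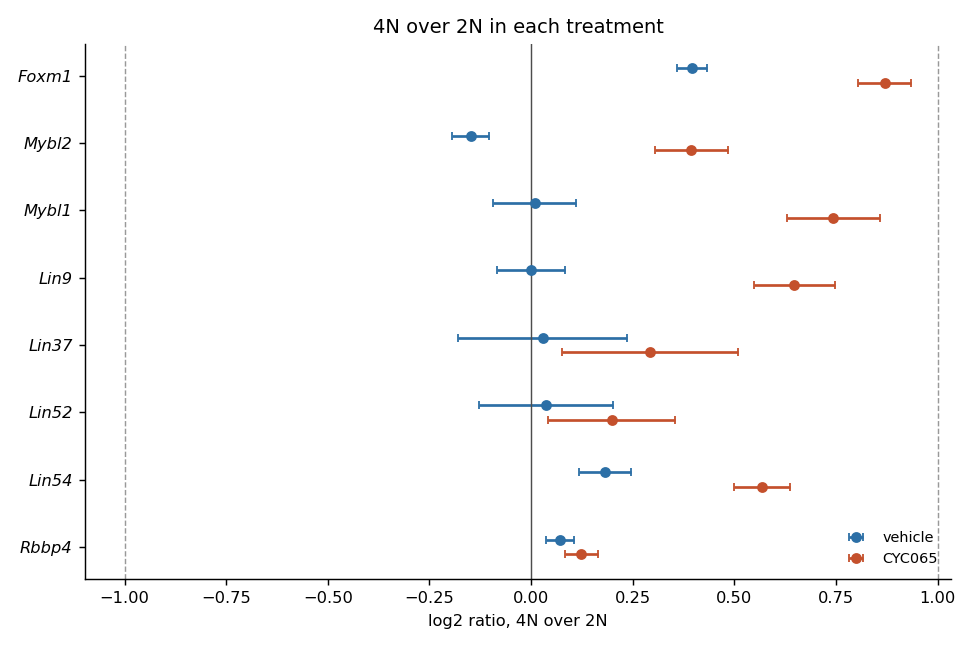
Log2 ratio of 4N over 2N for each gene in vehicle-treated and CYC065-treated cells, as ratios of summed libraries with 95% counting intervals, with dashed lines at the threshold of 1. In vehicle cells ratios run from -0.15 (Mybl2) to 0.40 (Foxm1), and in CYC065 cells from 0.12 (Rbbp4) to 0.87 (Foxm1).

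Ratios between genes within a library do not depend on its scaling. Per kb of exon, Mybl2 stood at 0.939 of Foxm1 (0.913 to 0.967) in vehicle 2N cells and at 0.644 (0.626 to 0.662) in vehicle 4N cells. In CYC065 cells the ratio was 0.728 (0.685 to 0.774) in 2N and 0.524 (0.499 to 0.549) in 4N cells, so that within each treatment it was lower in 4N cells. The unsorted library had the lowest value of each treatment, 0.565 with vehicle and 0.437 with CYC065. The ratio of Mybl1 to Mybl2 was higher with CYC065 in each population, from 0.163 (0.154 to 0.172) to 0.491 (0.452 to 0.532) in 2N cells, from 0.182 to 0.625 in 4N cells and from 0.245 to 0.753 in unsorted cells.

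Lin54 over Lin9 varied less, from 1.95 (vehicle 2N) to 2.69 (unsorted CYC065). Rbbp7, the close paralog of Rbbp4, also had lower levels with CYC065 (log2 -0.72 in unsorted, -0.86 in 2N and -0.77 in 4N cells, none called). The start of Rhno1, a gene of the ATR checkpoint response, lies 56 bases from that of Foxm1 on the opposite strand. Rhno1 had ratios of -0.80, -0.80 and -0.85 in unsorted, 2N and 4N cells, smaller in size than those of Foxm1 in each, and per kb Foxm1 over Rhno1 went from 4.88 to 2.14 in 2N cells and from 5.71 to 3.61 in 4N cells.

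**Figure D4:**
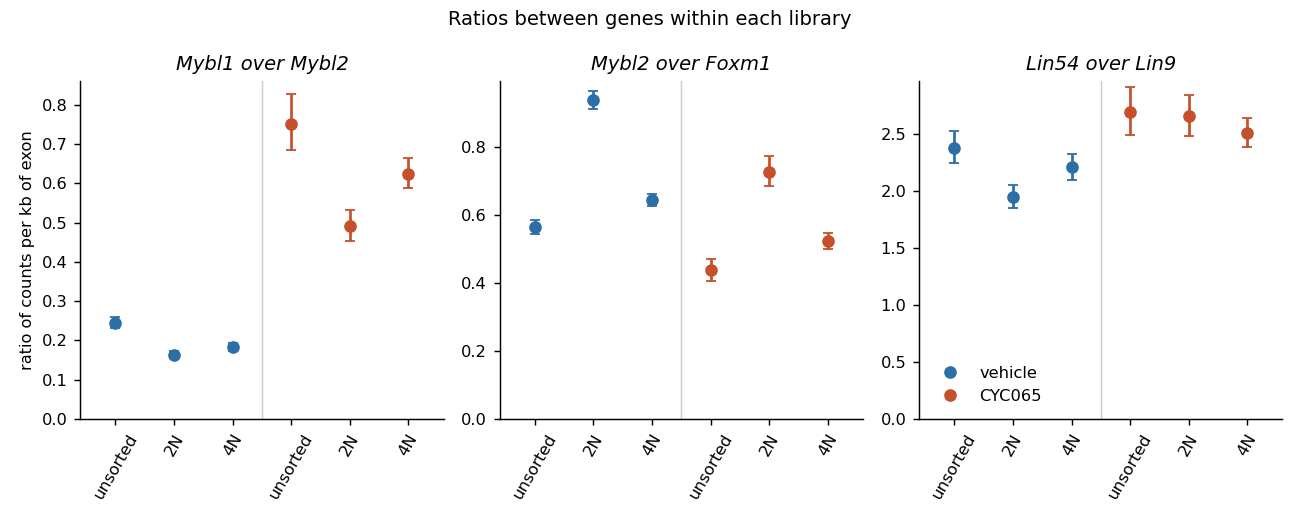
Ratios of counts per kb of exon between pairs of genes within each of the 6 libraries, with 95% counting intervals and axes from 0. Mybl1 over Mybl2 runs from 0.163 to 0.245 in vehicle cells and from 0.491 to 0.753 in CYC065 cells, whereas Lin54 over Lin9 stays between 1.95 and 2.69.

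Unsorted libraries did not lie between the sorted ones for most members, a comparison made after seeing the data. The same held for most of all genes tested in each treatment, so it is not particular to the members. With vehicle, 7 of 8 lay below both sorted libraries, against 44.9% of all genes, and 1 of 8, Lin37, lay above both, against 40.4%. With CYC065, 6 of 8 lay below both, against 43.3% of all genes, 0 of 8 lay above both, against 38.4%, and Foxm1 and Lin37 lay between. Mybl2 was farthest below, with the nearer sorted library 1.56-fold higher with vehicle and 1.65-fold higher with CYC065. Staining and sorting were not separated from this difference.

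The partners that turn MuvB into the DREAM repressor were considered next, with the genes Rbl1, Rbl2, Rb1, E2f4, E2f5, Tfdp1, Tfdp2 and Dyrk1a. Of the pocket protein genes, Rbl1 and Rbl2 had ratios of opposite sign in each population. Rb1 was not called. Its ratio was 0.95 in unsorted cells, the highest of the 8 there and just short of the threshold, and 0.29 in 2N cells. Rbl1, encoding p107 and itself an E2F target, fell from 109 to 19.2 CPM in 2N cells (log2 -2.51), from 127 to 31.3 CPM in 4N cells (-2.02) and from 81.5 to 16.2 CPM in unsorted cells (-2.34). Rbl2, encoding p130, which predominates in quiescent cells, rose from 19.3 to 45.4 CPM in 2N cells (1.24) and from 19.9 to 42.9 CPM in 4N cells (1.11), and had a ratio of 0.84 in unsorted cells, short of the threshold. E2f4 had ratios of -0.92, -0.92 and -0.85, and Dyrk1a, the kinase that promotes DREAM assembly, -0.11, -0.20 and -0.27 in unsorted, 2N and 4N cells. Tfdp1, encoding the E2F partner DP1, was called lower in each population (-1.11, -1.34 and -1.14), though 16.8% of its 50-base stretches also occur in other genes, mainly Gm7390. Of the 8 genes, 2 (Rbl1 and Tfdp1) were called lower in each population, and 1 (Rbl2) was called higher in 2N and in 4N cells and 0 in unsorted cells. Of all genes, 14%, 13.3% and 11.4% were called lower and 11.7%, 14.9% and 14.2% higher in unsorted, 2N and 4N cells, so that these counts lie near the background. In 4N against 2N cells none of the 8 was called in either treatment, against 2.73% of all genes with vehicle and 3.64% with CYC065.

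Of 17 genes for kinases, cyclins and adaptors that act on FoxM1 and B-Myb, 11 were called lower with CYC065 in unsorted, 10 in 2N and 8 in 4N cells, against 14%, 13.3% and 11.4% of all genes, with medians of -1.25, -1.20 and -0.96, and none was called higher. Ccna2, encoding the cyclin A that activates FoxM1 with CDK2, fell by 1.53 on the log2 scale in 2N and by 1.02 in 4N cells, and Cdk1 fell by 1.56 and 1.09. Plk1, whose product phosphorylates FoxM1, fell by 1.55 in 2N and 1.14 in 4N cells. Melk was the lowest of the list in 2N cells, at -1.65. Ccnb2 had the highest ratio there, 0.35, and was not called. Cdk2, encoding a kinase that CYC065 inhibits, had ratios of -0.96 in 2N and -0.53 in 4N cells. Ccne1 had ratios of -0.95 and -1.14, the latter called lower. In 4N against 2N cells after CYC065, 6 of the 17 were called higher, against 1.59% of all genes, from Ccnb1 at 1.51 to Ccnd1, not called, at -0.28. Of these 6, 4 (Ccna2, Ccnb1, Cdk1 and Plk1) also belong to the G2/M genes described next, so that these calls are counted in both lists. The 17 genes were chosen with earlier results of these data known, so their counts do not test enrichment. Of the 50-base stretches of Ccnb1, 23.4% occur in other genes, mainly a pseudogene, and its counts are uncertain.

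Next considered were 50 G2/M genes listed as the CHR class, the kind of gene that B-Myb, FoxM1 and MuvB activate. Matches in their own promoters were not examined, and control by these regulators was not tested in these cells. With CYC065, 48 of 50 were called lower in unsorted, 43 in 2N and 16 in 4N cells, against 14%, 13.3% and 11.4% of all genes, with medians of -1.55, -1.40 and -0.77. Ube2c, the ubiquitin-conjugating enzyme of the anaphase-promoting complex, was the lowest in 2N cells at -2.41. Ccnb2 was the highest there, at 0.35 (0.21 to 0.49), and was not called. It was the only one of the 50 above 0 in 2N cells and in 4N cells (0.28), whereas all 50 were below 0 in unsorted cells. Birc5, encoding survivin, fell by 1.77 in 2N and 1.18 in 4N cells. Cenpf, a kinetochore gene, fell by 1.68 in 2N cells and had a ratio of -0.77 in 4N cells. In vehicle cells none of the 50 was called in 4N against 2N cells, against 2.73% of all genes, and 50 of 50 had intervals above 0, against 28.2%, with a median of 0.63. In CYC065 cells 43 of 50 were called higher in 4N cells, against 1.59% of all genes, with a median of 1.23. Ratios ran from Cks2 at 0.55, not called, to Nusap1, encoding a spindle protein, at 1.76. Like the other lists, this one was chosen with earlier results of these data known. It holds genes that the paper reported as increased in polyploid cells after CYC065, such as Cdk1, Plk1 and Aurka. The shares given for the lists therefore describe them and do not test enrichment. Foxm1, at 0.40 in vehicle and 0.87 in CYC065 cells, lay below both medians, and Mybl2 below Foxm1. The Cks2 value is uncertain, since 29.7% of its 50-base stretches occur in other genes.

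Of 30 G1/S genes of the E2F class, 27 were called lower with CYC065 in unsorted, 25 in 2N and 20 in 4N cells, against the same 14%, 13.3% and 11.4% of all genes, with medians of -1.75, -1.57 and -1.18. Tk1, encoding thymidine kinase, was the lowest in 2N cells at -3.14, and Cdt1, a replication licensing gene, the highest at -0.11. Their 4N over 2N medians were -0.17 in vehicle and 0.28 in CYC065 cells, with 1 gene (Ung, encoding uracil-DNA glycosylase, at -1.09) called lower in vehicle cells, against 1.71% of all genes, and none called in CYC065 cells, against 3.64%, where the ratios ran from Ung at -0.83 to Gins3 at 0.67. Mybl2, at -0.15 and 0.39, had the same signs as these medians, and Foxm1 had a positive ratio in both treatments, as did all 50 G2/M genes. In CYC065 cells both medians and all 8 members were above 0, so signs there do not separate the classes. In vehicle cells 7 of the 30 G1/S genes were above 0 too. No test of likeness to either class was made.

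**Figure D5:**
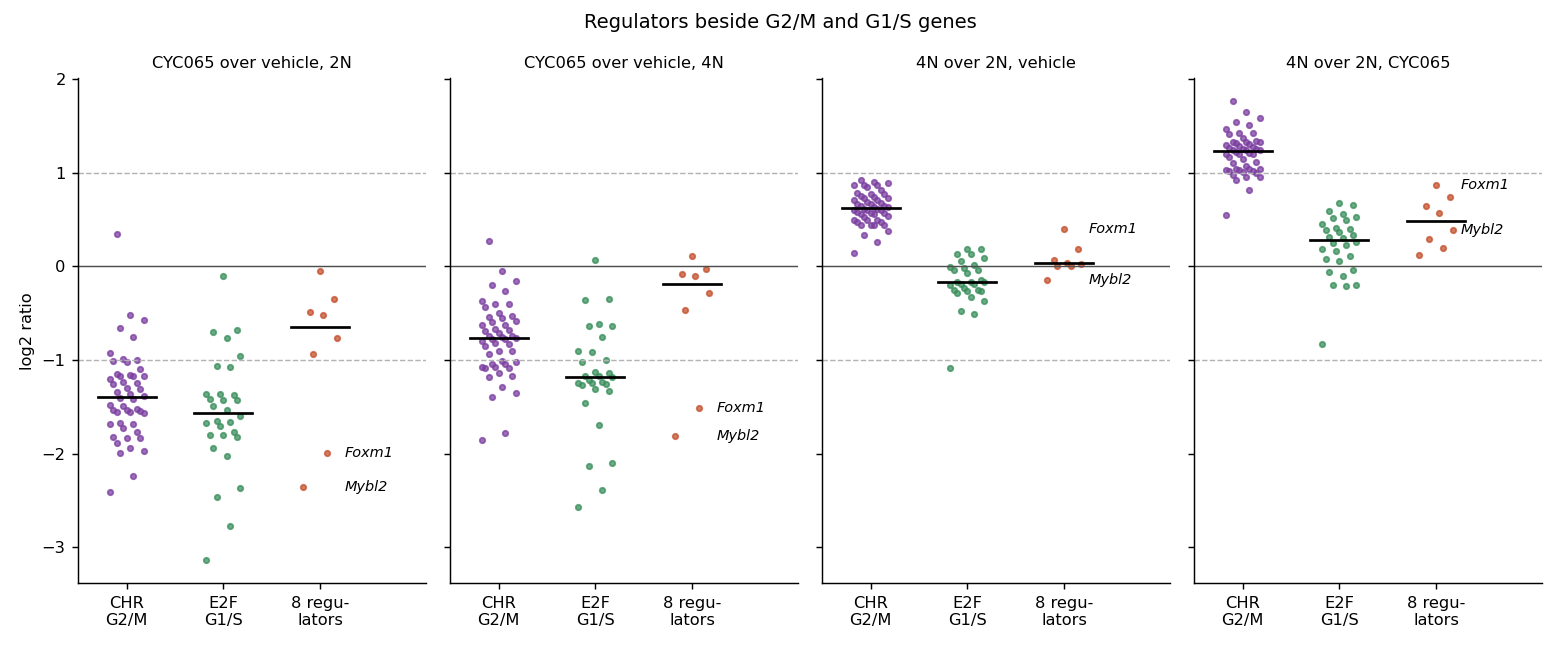
Log2 ratios of 50 CHR-class G2/M genes, 30 E2F-class G1/S genes and the 8 regulators in 4 comparisons, 1 point for each gene, with black bars at medians and dashed lines at the threshold of 1. In 4N over 2N cells after CYC065 the G2/M genes have a median of 1.23, the G1/S genes 0.28 and the regulators 0.48.

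The genes whose profiles over the 6 libraries were most like those of Foxm1 and Mybl2 were found by the Euclidean distance between log2 CPM profiles centered on their means, among 10816 genes with at least 100 counts in each library. Nearest to Foxm1 were Asf1b, a histone chaperone (distance 0.184), Fbxo5, the APC/C inhibitor EMI1 (0.194), Haspin, a histone H3 kinase (0.217), Kif15, a mitotic kinesin (0.263), and Spc24, an NDC80 complex subunit (0.268). Nearest to Mybl2 were Pole, the catalytic subunit of DNA polymerase epsilon (0.184), Exosc2, an RNA exosome subunit (0.203), Nhp2, a subunit of H/ACA ribonucleoproteins (0.220), Gemin6, of the SMN complex (0.245), and Nes, the intermediate filament nestin (0.246). Foxm1 and Mybl2 were 0.865 apart, and only 3.42% of these genes were nearer to Foxm1 than Mybl2 was. Profiles were not scaled for range, so distances also depend on how widely each gene varied. Among the members the closest pair was Mybl1 and Lin54 (0.232), and Mybl1 was nearer to Lin9 (0.339) than to its paralog Mybl2 (2.13). These distances are descriptions over 6 libraries.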

How the data were processed

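RNA was prepared with a stranded total RNA kit with ribosomal RNA depletion. Per the submitters' processing notes, reads were demultiplexed with bcl2fastq 2.17, trimmed with cutadapt 1.18, aligned to mm10 with STAR 2.7.0f and quantified with RSEM 1.3.1. The deposited values are expected counts per gene, estimated by the authors with RSEM and not normalized, in 18 columns, 3 for each of 6 conditions. Whether counting used strand is not given in the sources used here.

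Expected counts were rounded and the 3 columns of each condition summed. Libraries were scaled by TMM (edgeR 4.0.16, R 4.3.3) over all 6 libraries. Log2 ratios used a prior count of 0.125, with exact conditional binomial 95% intervals, or a normal approximation for differences of ratios. Genes with at least 30 counts in 1 of the libraries compared were tested, and those beyond 1 on the log2 scale called. On simulated counts for CYC065 against vehicle in 2N cells (13247 genes), 200 of 200 genes changed 4-fold were called, as were 17 unchanged genes, and for the difference of 4N over 2N between treatments (13466 genes) 200 of 200 and 92 unchanged genes. None of these unchanged genes had 100 or more counts. The simulated counts held counting noise only, around the vehicle 2N profile, and changes were planted in genes with at least 100 counts. No spread between cultures was simulated, so these figures are not error rates for the real comparisons. Intervals and floors cover counting error only, and libraries of this depth put 3 counts at 0.0443 to 0.0545 CPM.

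The 8 members, the gene lists and the motifs were chosen with earlier results of these data known. All 8 members are named, with the genes nearest to Foxm1 and Mybl2, the highest and lowest of each list in CYC065 over vehicle in 2N cells and in 4N over 2N cells after CYC065, and genes with a role in the pathway. Alternatives were other scalings, filters and prior counts, edgeR quasi-likelihood and DESeq2 1.42.0 tests on the columns, an assumed coefficient of variation, and leaving out each column. Gene positions, exon lengths and shared 50-base stretches came from GENCODE M21.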

Additional observations from a re-analysis of the deposited data

Results flagged for a closer look

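The 4N over 2N ratio differed between treatments beyond counting error for 6 of the 8 genes, each with a higher log2 ratio in CYC065 than in vehicle cells. The differences were 0.47 for Foxm1, 0.54 for Mybl2, 0.73 for Mybl1, 0.65 for Lin9, 0.39 for Lin54 and 0.053 for Rbbp4. The Rbbp4 interval began barely above 0 (0.0008 to 0.106), and alternatives put its difference at 0.008 to 0.067. Its place among the 6 is therefore not settled. Of all genes tested, 27.3% had a difference above 0 beyond counting error and 22.6% one below 0. For Mybl2 the direction differed, from -0.15 in vehicle to 0.39 in CYC065 cells. Each difference rests on 4 single libraries, so that a difference between cultures was not tested.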

How the results depend on the processing

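Across all alternatives run, the number of members called did not change: 2 (Foxm1 and Mybl2, both lower) with CYC065 in unsorted, 2N and 4N cells, and 0 in the other comparisons, leaving out each column included. Of 540 values of members under alternatives, 45 moved beyond the counting interval, 24 had another sign and no called value changed direction. Counts of all genes moved more. Without a filter on low counts, 10468 were called with CYC065 in unsorted, 11767 in 2N and 11123 in 4N cells, 5630 in 4N against 2N with vehicle, 7596 with CYC065 and 10213 for the difference, instead of 3619, 3974, 3637, 365, 516 and 1057. For the last 3, at least 100 counts gave 120, 216 and 313, intervals wholly beyond the threshold 70, 163 and 121, and an assumed coefficient of variation of 0.2 gave 21, 43 and 15. Tests on the columns, which compare libraries and not conditions, called 546 (edgeR), 528 (edgeR with a replicate block) and 345 (DESeq2) genes for the difference. Column numbers did not pair the samples (correlations of deviations -0.43 to 0.38), and the replicate block changed no call of a member. Scaling by library size alone moved the median of all genes in 4N cells from -0.03 to 0.11 and the calls there from 2016 higher and 1621 lower to 2434 and 1224. The cause of these shifts was not tested, apart from the number of genes each filter admits. Depth limits Lin37 and Lin52, with 296 to 783 counts, and nothing here measures the spread between cultures.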

Other observations

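Of 25 other forkhead genes, 21 passed the filter on low counts in 2N cells, some only through the library where they are high, so that no count of calls is given. Foxc1, a mesenchymal forkhead factor, rose the most of these in 2N cells (1.87) and was called higher in 4N (1.66) and unsorted cells (1.92). Foxk2 had the lowest ratio in 2N cells, -0.72, and was not called. In 4N against 2N cells after CYC065, Foxk2 had the highest ratio, 0.36. Foxj1 had the lowest, -1.06 (-1.91 to -0.26), from 38 counts in 2N and 21 in 4N cells. Foxj1 passed the filter there only through the 2N library, where it is higher, which favors a low ratio, so its rank is not interpreted. Next lowest was Foxs1, at -0.57, from 172 counts in 2N and 134 in 4N cells.

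Among 12 genes of other complexes that hold RBBP4, 3 were called lower with CYC065 in 2N cells, Chaf1a, Chaf1b (-1.42) and Suz12 (-1.06), against 13.3% of all genes. Chaf1a and Chaf1b are also 2 of the 30 G1/S genes. The lowest was Chaf1a, a subunit of the CAF-1 histone chaperone, at -1.68, and the highest Mta1, of the NuRD complex, at -0.01. In 4N against 2N cells after CYC065 none was called, against 3.64% of all genes. Ezh2, of the PRC2 complex, was highest at 0.58 and Hdac1 lowest at -0.15, the latter uncertain because 35.3% of its 50-base stretches occur in other genes.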
